A study of Homo sapiens with 2 samples.

Results

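OVCAR5, an ovarian carcinoma line that here carries a reporter for interferon-γ sensing and expresses CFP, was sequenced as single cells after interferon-γ treatment in culture, and the cells described here are those that carried antibody hashtags 2 and 6, 2 and 8, or 3 and 4, set against those with hashtags 2 and 4. Cells needed 500 genes or more and no more than 20% of their UMIs (unique molecular identifiers, each counting 1 captured transcript) from mitochondria. Each cell was then given a pair: its 2 most abundant hashtags of 8, provided that the second reached at least 5 times the third plus 1. Pair 2+6 held 398 cells, pair 2+8 held 330, pair 3+4 held 379 and pair 2+4 held 320, together 1427 of the 6114 cells with a pair, of 7201 cells that passed the filter and 7804 barcodes. Just inside the hashtag threshold, at ratios of 5 to 6, lay 4, 5, 1 and 6 cells of these pairs, and just outside, at 4 to 5, lay 3, 3, 6 and 3. The 3 pairs were selected on measured values of these same cells, high IRF1 and CD74 near 200 CPM (UMIs of a gene for each 1000000 UMIs of the pair), so those genes and every contrast with pair 2+4 are descriptions and carry no test.

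All 4 pairs came from 1 pool, captured and sequenced as 1 gene expression library with 1 hashtag library, so the design has no replicate. The labels list 18 conditions in the pool: doses of 1, 10 and 100 ng/ml interferon-γ and no stimulation, each harvested after 2, 6, 12 and 24 h, and, as frozen cells, the 24 h samples of no stimulation and of 100 ng/ml. Hashtags sorted the cells into 18 pairs of at least 100 cells, but the labels used here do not say which pair held which condition, and no dose or time is given to a pair below. Pairs 2+6 and 2+8 share hashtag 2 with pair 2+4, and pair 3+4 shares hashtag 4 with it. All 3 ratios share pair 2+4 as their denominator, so their likeness is in part built in.

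Interferon-γ binds a receptor made of IFNGR1 and IFNGR2, whose kinases JAK1 and JAK2 start the signal inside the cell. The signal reaches GAS elements of a first set of genes that includes the transcription factor IRF1, and IRF1 then acts on genes for antigen presentation, chemokines and antiviral defence, many through ISRE elements. In carcinoma cells the pathway is known for CXCR3-binding chemokines that attract T cells, for MHC molecules that show peptides to them, and for IDO1 and PD-L1, which restrain them.

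The 250 bases before the start were searched for these elements in 6 genes that lead the results: the 3 chemokine genes, IRF1, the feedback inhibitor SOCS1 and the guanylate-binding protein gene GBP4. The sequences are from RefSeq (GRCh38.p14), 5′ to 3′ on the gene's strand, which is the minus strand for all 6. Capitals mark a GAS motif (TTCNNNGAA) or an ISRE core (GAAA, any 2 bases, GAAA), searched on both strands. Their positions are chr4:76023498-76023747 for CXCL10, chr4:76036071-76036320 for CXCL11, chr4:76007510-76007759 for CXCL9, chr5:132490774-132491023 for IRF1, chr16:11256205-11256454 for SOCS1 and chr1:89198943-89199192 for GBP4.
CXCL10: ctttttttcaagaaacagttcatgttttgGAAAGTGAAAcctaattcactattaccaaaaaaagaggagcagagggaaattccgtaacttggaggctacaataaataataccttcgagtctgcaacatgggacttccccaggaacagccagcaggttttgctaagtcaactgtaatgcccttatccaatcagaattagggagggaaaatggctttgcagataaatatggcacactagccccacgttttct
CXCL11: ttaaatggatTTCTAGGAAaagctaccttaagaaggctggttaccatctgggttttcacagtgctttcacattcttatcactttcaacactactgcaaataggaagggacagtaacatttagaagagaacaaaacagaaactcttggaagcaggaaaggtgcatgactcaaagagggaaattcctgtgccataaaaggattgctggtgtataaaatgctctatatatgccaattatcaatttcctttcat
CXCL9: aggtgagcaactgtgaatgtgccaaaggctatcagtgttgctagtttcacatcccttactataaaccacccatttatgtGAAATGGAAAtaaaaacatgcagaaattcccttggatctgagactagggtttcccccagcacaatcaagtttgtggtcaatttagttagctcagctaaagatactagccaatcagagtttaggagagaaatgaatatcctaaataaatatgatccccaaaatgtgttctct
IRF1: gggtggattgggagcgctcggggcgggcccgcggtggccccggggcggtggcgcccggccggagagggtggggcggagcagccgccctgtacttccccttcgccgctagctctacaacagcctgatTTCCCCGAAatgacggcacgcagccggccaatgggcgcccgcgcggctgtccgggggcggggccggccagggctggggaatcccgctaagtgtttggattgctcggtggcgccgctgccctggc
SOCS1: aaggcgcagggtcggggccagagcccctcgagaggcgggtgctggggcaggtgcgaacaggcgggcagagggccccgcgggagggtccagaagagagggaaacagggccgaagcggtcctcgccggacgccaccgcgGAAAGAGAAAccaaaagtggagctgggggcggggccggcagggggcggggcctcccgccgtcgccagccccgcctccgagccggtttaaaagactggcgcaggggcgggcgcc
GBP4: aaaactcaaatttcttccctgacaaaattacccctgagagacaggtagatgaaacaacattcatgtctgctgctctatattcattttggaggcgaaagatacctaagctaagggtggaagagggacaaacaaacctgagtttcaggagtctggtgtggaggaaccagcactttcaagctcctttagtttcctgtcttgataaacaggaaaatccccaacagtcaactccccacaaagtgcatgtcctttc
CXCL10, CXCL9 and SOCS1 each held 1 ISRE core, at -221 to -212, -171 to -162 and -113 to -104 from the start. CXCL11 and IRF1 each held 1 GAS motif, at -240 to -232 and -124 to -116. GBP4 held neither in this window. Of 27305 RefSeq promoters of this length, 6.78% held a GAS motif and 3.07% an ISRE core. A match is a run of letters, not a measured site of binding. Of the genes at least 2-fold higher in a pair, 69.1% to 72.1% had an entry in the table, under the 80% needed for a comparison, so no share is given for them.

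Against pair 2+4, the 3 pairs had about 1 gene in 40 at least 2-fold higher and far fewer lower. Of 9603 genes with at least 200 UMIs over the 4 pairs, 220 (2.29%) were at least 2-fold higher and 35 (0.364%) at least 2-fold lower in pair 2+6. In pair 2+8 the numbers were 233 (2.43%) higher and 28 (0.292%) lower, and in pair 3+4 they were 232 (2.42%) and 25 (0.26%). Because 3 of the 4 pairs are those where interferon genes are high, many genes reached 200 UMIs through them, and the counts over lists below are of such measured genes only. The higher genes took 0.524% to 0.549% of the UMIs in pair 2+4 and 2.06% to 2.21% in the 3 pairs. Median ratios over all 9603 genes were 0.959, 0.963 and 0.958. The median depth of pair 2+4 was 29527 UMIs per cell, beside 29020 to 30146 in the others, and cells over 60000 UMIs numbered 2 in pair 2+4 and 7, 3 and 3 in pairs 2+6, 2+8 and 3+4. Mitochondrial UMIs had medians of 11.2% to 11.4% in the 4 pairs. Intervals below are exact 95% intervals that cover counting error only, not the spread between cultures, and the cells of a pair are not replicates.

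**Figure D1:**
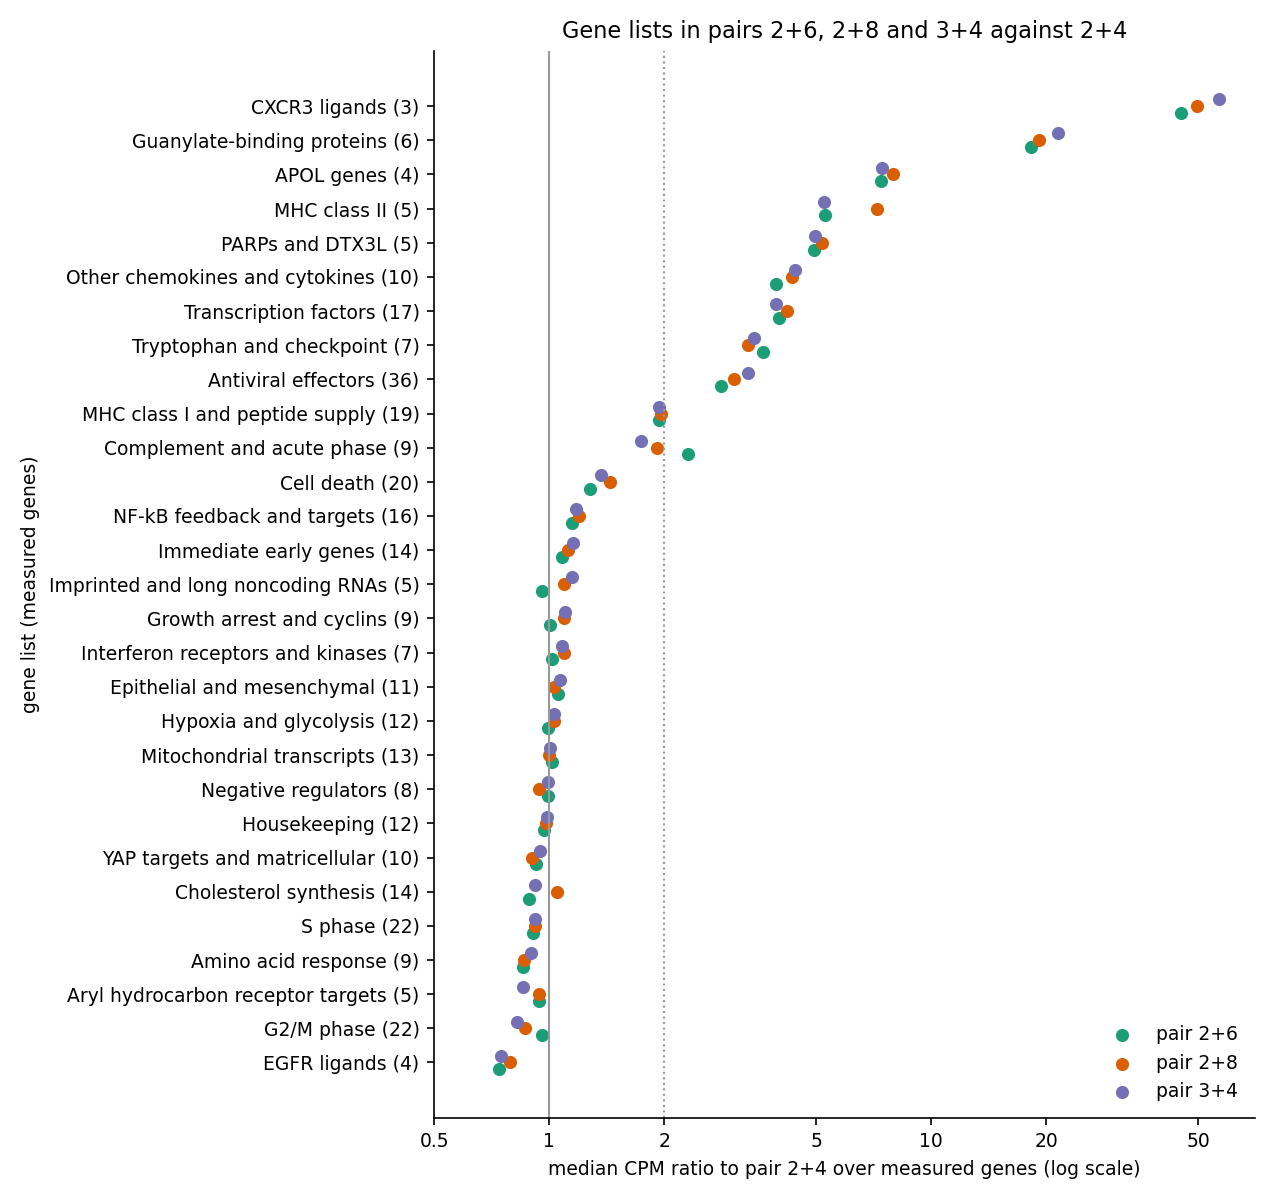
Median ratio of CPM to pair 2+4 for each gene list (log scale), with the number of measured genes in brackets and 1 point for each of pairs 2+6, 2+8 and 3+4; the solid line marks no difference and the dotted line the 2-fold mark. CXCR3 ligands lie farthest right, at 45 to 56.5, and the 3 points of each list lie close to each other.

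Of the receptors and kinases, 1 of 7 genes was at least 2-fold higher in each of the 3 pairs, the kinase JAK2. JAK2 had 4.01 CPM in pair 2+4 and 20.01, 22.2 and 21.5 CPM in pairs 2+6, 2+8 and 3+4. Those levels were 4.99, 5.53 and 5.36 times that of pair 2+4, and the 3 pairs lay within 1.11-fold of each other. JAK1, its partner kinase, stood at 71.5 CPM in pair 2+4 and 71.2, 72.4 and 72.5 CPM in the 3 pairs. The receptor chain genes did not part the pairs by 2-fold: IFNGR1, which binds the ligand, had 16.9 CPM in pair 2+4 and 16.2, 17.5 and 18.2 CPM in the 3 pairs, and the signalling chain IFNGR2 had 62.7 CPM in pair 2+4 and 52.8, 54.2 and 50.2 CPM in the 3 pairs. IFNAR2, a chain of the type I interferon receptor, was 1.77, 1.68 and 1.65 times its level in pair 2+4, below the 2-fold mark, but 2.41, 2.08 and 2.06 times after each cell was thinned to 10000 UMIs.

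Nearly all transcription factors of the list were at least 2-fold higher, 16 of 17 in pair 2+6 and 15 of 17 in pairs 2+8 and 3+4, with medians of 3.99, 4.19 and 3.93. IRF1, which chose the pairs, had 43.7 CPM in pair 2+4 and 1012, 1046 and 1058 CPM in the 3 pairs. ETV7, an ETS-family repressor, had 1.03 CPM in pair 2+4 and 51.4, 58.1 and 57.4 CPM in the 3 pairs. CIITA, the master activator of MHC class II genes, had 1.03 CPM in pair 2+4 and 26.0, 26.8 and 28.7 CPM in the 3 pairs, and NLRC5, its counterpart for class I, had 0.925 CPM in pair 2+4 and 20.5, 24.0 and 23.2 CPM in the 3 pairs. IRF8, best known from myeloid cells, had 0.925 CPM in pair 2+4 and 16.8, 17.7 and 17.2 CPM in the 3 pairs, and BATF2, a partner of IRF1 in macrophages, had 6.79 CPM in pair 2+4 and 132, 142 and 142 CPM in the 3 pairs. For all 6 of these genes the 3 pairs lay far above pair 2+4 and close to each other. Thinned to 10000 UMIs a cell, the ETV7 ratios of pairs 2+6 and 2+8 went from 49.98 and 56.5 to 31.99 and 33.25, and the NLRC5 ratio of pair 2+6 from 22.1 to 13.1. IRF7, which drives type I interferon genes, was 1.66, 1.51 and 1.74 times its level in pair 2+4.

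Feedback inhibitors were split. SOCS1, which blocks JAK kinases, had 3.08 CPM in pair 2+4 and 49.9, 51.4 and 56.4 CPM in the 3 pairs, and ratios of 16.2, 16.7 and 18.3. SOCS3, another SOCS protein, had 13.4 CPM in pair 2+4 and 34.2, 35.1 and 35.2 CPM in the 3 pairs, and USP18, which removes ISG15 and dampens type I receptor signalling, had 2.16 CPM in pair 2+4 and 11.2, 11.4 and 11.4 CPM in the 3 pairs. These were the 3 of 8 genes at least 2-fold higher in every one of the 3 pairs. The phosphatase genes PTPN1, PTPN2, PTPN6 and PTPN11 and PIAS1 lay between 0.635 and 1.02 times pair 2+4; PTPN6 in pair 3+4 was the lowest of them.

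In the list of NF-kB feedback and target genes, 3, 2 and 3 of 16 members were at least 2-fold higher in pairs 2+6, 2+8 and 3+4, with medians of 1.15, 1.2 and 1.18. ICAM1, an adhesion receptor for leukocytes, differed most, with 30.4 CPM in pair 2+4 and 213, 228 and 221 CPM in the 3 pairs. NFKBIA, the inhibitor that holds NF-kB in the cytoplasm, lay on the 2-fold mark, with 84.9 CPM in pair 2+4 and 172, 169 and 169.9 CPM in the 3 pairs, and all 3 pairs passed it with median-of-ratios scaling. TNFAIP3, which encodes the inhibitor A20, had 6.79 CPM in pair 2+4 and 12.9, 14.4 and 16.9 CPM in the 3 pairs, or 1.90, 2.12 and 2.49 times its level in pair 2+4. IER3 went the other way without reaching 2-fold, with 117 CPM in pair 2+4 and 73.7, 82.7 and 79.2 CPM in the 3 pairs.

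The 3 ligands of CXCR3, a receptor of activated T cells, had higher medians than any other list with at least 3 measured genes, at 45.0, 49.7 and 56.5. CXCL10 had 3.50 CPM in pair 2+4 and 227, 269 and 309 CPM in pairs 2+6, 2+8 and 3+4. That is 64.9, 77.1 and 88.3 times the level of pair 2+4. The counting intervals of those ratios were 46.3 to 93.9, 55.0 to 112 and 63.0 to 128, wide because pair 2+4 held only 34 CXCL10 UMIs. CXCL11 had 1.44 CPM in pair 2+4 and 64.8, 71.6 and 81.4 CPM in the 3 pairs, on 14 UMIs in pair 2+4. CXCL9 had 0.411 CPM in pair 2+4 and 18.5, 16.02 and 22.4 CPM in the 3 pairs, on 4 UMIs there, and its ratio of 44.9 in pair 2+6 had an interval of 17.3 to 166. Thinning brought the CXCL9 ratios to 19.3, 15.6 and 18.1, with counts under 3 set to 3. CXCL10 was given as a marker of these pairs together with TNIP3, an inhibitor of NF-kB signalling. TNIP3 does not carry that label well: it had 13, 8 and 13 UMIs in the 3 pairs and 5 in pair 2+4, under the minimum of 200 over the 4 pairs, and the interval of each ratio includes 1.

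Of the other chemokines and cytokines, 8 of 10 were at least 2-fold higher in each of the 3 pairs, though not the same 8: CXCL8 was among them in pair 2+8 and CCL5 in pair 3+4. CXCL8 was at least 2-fold lower in pair 2+6, and CCL5 in pair 2+8. IL32, an inflammatory cytokine, had 6.68 CPM in pair 2+4 and 85.9, 85.9 and 89.8 CPM in the 3 pairs, and TNFSF13B (BAFF), a survival factor for B cells, had 1.95 CPM in pair 2+4 and 36.6, 42.4 and 43.5 CPM in the 3 pairs. TNFSF10, which encodes the death ligand TRAIL, had 6.89 CPM in pair 2+4 and 41.1, 44.0 and 45.2 CPM in the 3 pairs. IL15, which sustains T and NK cells, was 4.04, 4.44 and 4.27 times its level in pair 2+4, and CSF1, a macrophage growth factor, 4.84, 4.21 and 4.595 times. The values of CXCL8 and CCL5 are given with the steps among the 3 pairs.

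Antigen presentation genes showed large ratios from low levels for class II and smaller ratios from high levels for class I. Of 14 class II genes 5 were measured, and 4, 5 and 4 of these were at least 2-fold higher. CD74, the invariant chain, which also chose the pairs, had 18.4 CPM in pair 2+4 and 190.4, 208 and 183 CPM in the 3 pairs. HLA-DRA, the α chain of HLA-DR, had 3.80 CPM in pair 2+4 and 18.8, 23.5 and 17.96 CPM in the 3 pairs. HLA-DPA1 had 0.823 CPM in pair 2+4 and 9.76, 13.2 and 9.25 CPM in the 3 pairs, and HLA-DMA, a peptide editor, was 1.66, 2.42 and 1.94 times its level in pair 2+4. In pair 3+4 HLA-DMA reached 2.02 times with median-of-ratios scaling. All 5 genes were highest in pair 2+8 among the 3 pairs, by 1.09-fold over pair 2+6 for CD74.

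Class I and peptide supply genes had medians of 1.94, 1.96 and 1.94, with 9, 8 and 9 of 19 at least 2-fold higher. TAP1, a subunit of the peptide transporter, had 22.2 CPM in pair 2+4 and 267, 275 and 276 CPM in the 3 pairs. PSMB9, an immunoproteasome subunit, had 86.9 CPM in pair 2+4 and 418, 427 and 440.4 CPM in the 3 pairs, and HLA-E, read by NK cells, had 64.5 CPM in pair 2+4 and 274, 284 and 279 CPM in the 3 pairs. These classical chains stayed under 2-fold: HLA-B was 1.86, 1.96 and 1.92 times its level in pair 2+4 and HLA-C 1.44, 1.44 and 1.495 times. B2M, the shared light chain, had 1926 CPM in pair 2+4 and 2869.6, 2924 and 2921 CPM in the 3 pairs. CALR and PDIA3, which help fold the chains and are not known mainly as interferon genes, were between 0.953 and 1.03 times pair 2+4.

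Guanylate-binding proteins, GTPases that attack vacuoles of intracellular pathogens, were all 6 at least 2-fold higher in all 3 pairs, with medians of 18.2, 19.2 and 21.4. In pair 2+4 GBP1 had 28.3 CPM, against 621, 645 and 649 CPM in pairs 2+6, 2+8 and 3+4. The ratios of this, the most abundant of the 6 by UMIs, were 22.0, 22.8 and 23.0. GBP4 had 7.51 CPM in pair 2+4 and 248, 266 and 262 CPM in the 3 pairs, and GBP7 had 0.411 CPM in pair 2+4 and 13.6, 14.6 and 15.4 CPM in the 3 pairs. After thinning, the GBP7 ratios were 17.4, 17.8 and 18.1 in place of 33.2, 35.4 and 37.5, with counts under 3 set to 3. GBP7 held only 4 UMIs in pair 2+4 before thinning, so neither set of ratios is precise. PARPs and DTX3L (5 of 5) and apolipoprotein L genes (4 of 4) were likewise all above 2-fold in the 3 pairs. PARP14, an ADP-ribosyltransferase, had 51.0 CPM in pair 2+4 and 427, 458 and 443 CPM in the 3 pairs, and APOL6 had 83.4 CPM in pair 2+4 and 615, 645 and 603 CPM in the 3 pairs.

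Antiviral effectors, a list that shares USP18 with the feedback inhibitors, were more uneven, with 25, 25 and 26 of 36 at least 2-fold higher. EPSTI1 had 5.66 CPM in pair 2+4 and 109.8, 116 and 109 CPM in the 3 pairs, and IFIT3, which binds viral RNA together with IFIT1, had 51.4 CPM in pair 2+4 and 372, 375 and 362 CPM in the 3 pairs. IFIT1 itself had 18.5 CPM in pair 2+4 and 28.6, 31.0 and 31.5 CPM in the 3 pairs, below 2-fold in all 3 pairs. MX1, a GTPase that blocks viral nucleocapsids, was 3.62, 4.09 and 3.88 times its level in pair 2+4, while its relative MX2 was 1.06, 1.04 and 0.949 times. ISG15, a ubiquitin-like modifier, had 551 CPM in pair 2+4 and 1154, 1120.4 and 1229.8 CPM in the 3 pairs. Some of these genes are concentrated in few antiviral-high cells (at least 10 UMIs summed over RSAD2, HERC5, OASL and CCL5), 12 of 320 cells in pair 2+4 and 20, 19 and 21 cells in pairs 2+6, 2+8 and 3+4. Without those cells the ratio of pair 2+6 went from 7.24 to 12.1 for IFIT3, which is not in that sum. For RSAD2, which is, it went from 2.75 to 10.1, a shift in part built in by the definition.

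Of 7 measured genes for tryptophan use and immune checkpoints, 4 were at least 2-fold higher in each of the 3 pairs. IDO1 had 26.6 CPM in pair 2+4 and 549.5, 615 and 662 CPM in pairs 2+6, 2+8 and 3+4. This enzyme, which opens the tryptophan ring, was 20.6, 23.1 and 24.9 times higher in level than in pair 2+4. WARS, the tryptophanyl-tRNA synthetase, had 44.7 CPM in pair 2+4 and 555, 614 and 600.3 CPM in the 3 pairs. CD274, which encodes PD-L1, had 3.29 CPM in pair 2+4 and 35.6, 42.6 and 37.2 CPM in the 3 pairs, and TNFRSF14, the HVEM receptor, had 9.36 CPM in pair 2+4 and 33.9, 31.1 and 32.2 CPM in the 3 pairs. CD276, which encodes B7-H3, was 0.898, 0.908 and 0.906 times its level in pair 2+4.

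Among cell death genes 7 of 20 were at least 2-fold higher in each of the 3 pairs. FAS, a death receptor, had 2.88 CPM in pair 2+4 and 12.1, 11.04 and 12.1 CPM in the 3 pairs, CASP8, the caspase it activates, had 50.3 CPM in pair 2+4 and 152, 157 and 149 CPM in the 3 pairs, and BAK1, a pore former of mitochondria, had 15.1 CPM in pair 2+4 and 45.8, 40.4 and 46.0 CPM in the 3 pairs. The survival genes BCL2L1, XIAP and BIRC2 were between 0.846 and 1.13 times pair 2+4. Of complement and acute phase genes 5, 3 and 4 of 9 were at least 2-fold higher, among them NNMT, a nicotinamide methyltransferase, with 154 CPM in pair 2+4 and 501, 574 and 540.3 CPM in the 3 pairs. Immediate early genes had 3 of 14 above 2-fold in each pair: the transcription factors JUNB with 14.3 CPM in pair 2+4 and 33.8, 37.9 and 36.5 CPM in the 3 pairs, KLF4 with 18.8 CPM in pair 2+4 and 45.6, 47.4 and 50.7 CPM in the 3 pairs and ATF3 with 0.925 CPM in pair 2+4 and 5.16, 7.32 and 6.60 CPM in the 3 pairs.

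**Figure D2:**
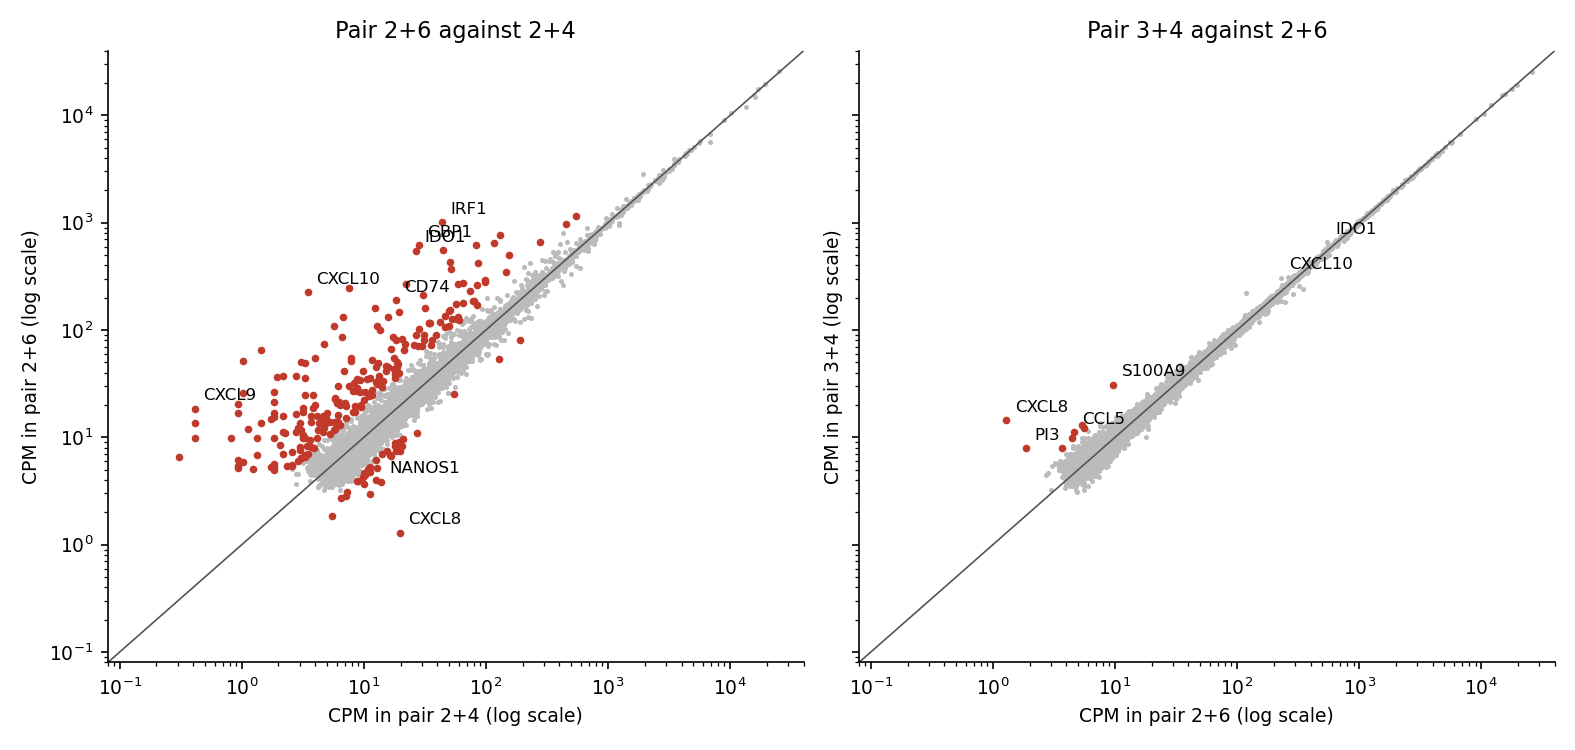
CPM of each of 9603 genes in pair 2+6 against pair 2+4 (left) and in pair 3+4 against pair 2+6 (right), both axes log scale; red points are at least 2-fold apart, the line marks equality, and genes with 0 UMIs in a pair are drawn at 1 UMI. The left panel has 220 genes at least 2-fold higher and 35 lower, the right panel 8 and 0.

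Few genes were lower. NANOS1, an RNA-binding translational repressor, had 13.8 CPM in pair 2+4 and 3.87, 4.004 and 3.35 CPM in the 3 pairs, and EVI2A had 11.2 CPM in pair 2+4 and 2.99, 3.32 and 3.26 CPM in the 3 pairs. Both genes were at least 2-fold lower in every one of the 3 pairs, with ratios of 0.281, 0.291 and 0.243 times and 0.266, 0.296 and 0.291 times pair 2+4. CEP126, a centrosomal protein, had 18.3 CPM in pair 2+4 and 7.42, 7.52 and 6.25 CPM in the 3 pairs, and PGF, a growth factor of the VEGF family, had 12.5 CPM in pair 2+4 and 6.21, 5.27 and 4.40 CPM in the 3 pairs. PGF in pair 2+6 lay at the 2-fold mark, at 0.495 times pair 2+4, and at 0.516 times with median-of-ratios scaling, and pair 2+8 was at 0.513 times after thinning. DKK1, a secreted Wnt inhibitor, was at least 2-fold lower in 2 of the 3 pairs: it had 128 CPM in pair 2+4 and 53.9, 89.1 and 50.2 CPM in the 3 pairs, and 1 cell of pair 2+8 held 201 of the 912 UMIs there.

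None of the 4 measured EGFR ligands was 2-fold higher or lower. Their summed level was 0.676, 0.676 and 0.626 times pair 2+4, carried by AREG and EREG. AREG had 495 CPM in pair 2+4 and 330.5, 334 and 315 CPM in the 3 pairs, and EREG had 205 CPM in pair 2+4 and 126, 118 and 106 CPM in the 3 pairs. EREG in pair 3+4 was 0.518 times pair 2+4, and 0.493 times after thinning. HBEGF was 0.974, 1.02 and 0.887 times pair 2+4, and TGFA 0.807, 0.903 and 0.856 times. KRT19, a simple-epithelium keratin, had 430.4 CPM in pair 2+4 and 263, 306 and 314 CPM in the 3 pairs, and the claudin CLDN4 had 89.3 CPM in pair 2+4 and 53.3, 51.8 and 50.3 CPM in the 3 pairs. No gene of the cholesterol synthesis (14 genes), hypoxia and glycolysis (12), amino acid response (9), S phase (22), G2/M phase (22), epithelial and mesenchymal (11), housekeeping (12) or mitochondrial (13) lists was 2-fold higher or lower in any of the 3 pairs. Over all 9603 genes, 2.29% to 2.43% were higher and 0.26% to 0.364% lower by that mark. At those shares a list of 4 to 22 genes would hold few or none, so these counts set no list apart. G2/M genes, which serve mitosis, summed to 0.965, 0.850 and 0.795 times pair 2+4, and S phase genes to 0.905, 0.896 and 0.910 times. Of markers for other cell types, leukocyte genes had 1 measured member, CD14, at 3.70 CPM in pair 2+4 and 5.89, 4.88 and 5.90 CPM in the 3 pairs, and fibroblast and endothelial genes had none. Thinning brought the CD14 ratios from 1.59, 1.32 and 1.59 times pair 2+4 to 3.75, 3.89 and 3.23 times. The thinned ratios rest on fewer UMIs of a gene that was already low in pair 2+4, and no interval is given for them.

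A few members of other lists passed the 2-fold mark. AHRR, the repressor of the aryl hydrocarbon receptor, had 9.25 CPM in pair 2+4 and 7.02, 5.96 and 4.58 CPM in the 3 pairs, at least 2-fold lower in pair 3+4. The cell cycle inhibitor CDKN1A had 9.25 CPM in pair 2+4 and 15.2, 18.7 and 17.7 CPM in the 3 pairs, at least 2-fold higher in pair 2+8. MIR155HG, the host transcript of miR-155, had 5.04 CPM in pair 2+4 and 16.9, 15.1 and 12.6 CPM in the 3 pairs, and was the 1 of 5 measured long noncoding or imprinted genes above 2-fold in the 3 pairs.

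The 3 pairs were close to each other. Pair 2+8 had 4 genes (0.0417%) at least 2-fold higher and 1 (0.0104%) lower than pair 2+6, and pair 3+4 had 3 (0.0312%) higher and 1 (0.0104%) lower than pair 2+8. Pair 3+4 had 8 genes (0.0833%) higher and 0 (0%) lower than pair 2+6. From pair 2+6 to pair 3+4 the ratio was 1.36 (interval 1.29 to 1.43) for CXCL10 and 1.21 (1.17 to 1.246) for IDO1. Both were under 2-fold, with intervals above 1. For IRF1 and CD74 it was 1.05 (1.02 to 1.07) and 0.96 (0.905 to 1.02). Those 2 genes chose the pairs, so their likeness was in part fixed by the choice. CXCL10 and IDO1 thus lay lowest in pair 2+6 and highest in pair 3+4, while CD74 and the other class II genes did not follow that order. G2/M genes summed to 0.824 times in pair 3+4 over pair 2+6 (interval 0.810 to 0.837), alongside those ratios, and their part in them was not tested.

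The genes with the largest steps sat in few cells. CXCL8, a neutrophil chemokine, had 192 UMIs in pair 2+4 and 16, 433 and 164 in pairs 2+6, 2+8 and 3+4, from 14 to 17 cells each. A single cell gave 254 of the 433 UMIs in pair 2+8 and another 98 of the 164 in pair 3+4. S100A9, an inflammatory calcium-binding protein, had 120, 229 and 351 UMIs in 11, 12 and 15 cells of the 3 pairs, and PI3 (elafin), a protease inhibitor, 23, 34 and 90 UMIs in 9, 13 and 16 cells. CCL5, a T cell chemokine, had 57, 8 and 127 UMIs in 6, 5 and 14 cells. SERPINB3 cells, defined by at least 10 UMIs summed over SERPINB3, SERPINB4, ZFHX4, PCSK1N and TFPI2, numbered 3 in pair 2+4 and 2, 6 and 5 in the 3 pairs. Without them CXCL8 in pair 3+4 was 1.66 times pair 2+6 in place of 11.2 times. Other steps stayed above 2-fold without these cells. CXCL8 in pair 2+8 was still 8.99 times pair 2+6, and in pair 3+4 S100A9 was 3.999 times and PI3 5.05 times pair 2+6. Without antiviral-high cells CCL5 fell to 3, 4 and 8 UMIs in the 3 pairs. CCL5 is among the genes that define those cells, so this fall was in part built in. LAMA3, a laminin chain, had 66, 80 and 147 UMIs in 38, 32 and 38 cells. Without SERPINB3 cells LAMA3 in pair 3+4 was 1.497 times pair 2+6, under 2-fold. Ratios to pair 2+4 moved too. Without the SERPINB3 cells CXCL8 went from 0.0654 to 0.415 in pair 2+6 and from 2.14 to 3.73 in pair 2+8. PI3 in pair 3+4 went from 1.45 to 18.4 without them, but on only 3 UMIs left in pair 2+4. Without antiviral-high cells CCL5 kept 2 UMIs in pair 2+4 and 3 in pair 2+6. Its ratio there went from 1.28 to 0.800 with counts under 3 set to 3. That value reflects only the floor and the pair totals, and no direction can be read from it. Thinning took CCL5 in pairs 2+6, 2+8 and 3+4 to 4.24, 0.778 and 7.64 times and S100A9 in pairs 2+6 and 3+4 to 0.183 and 0.937 times.

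**Figure D3:**
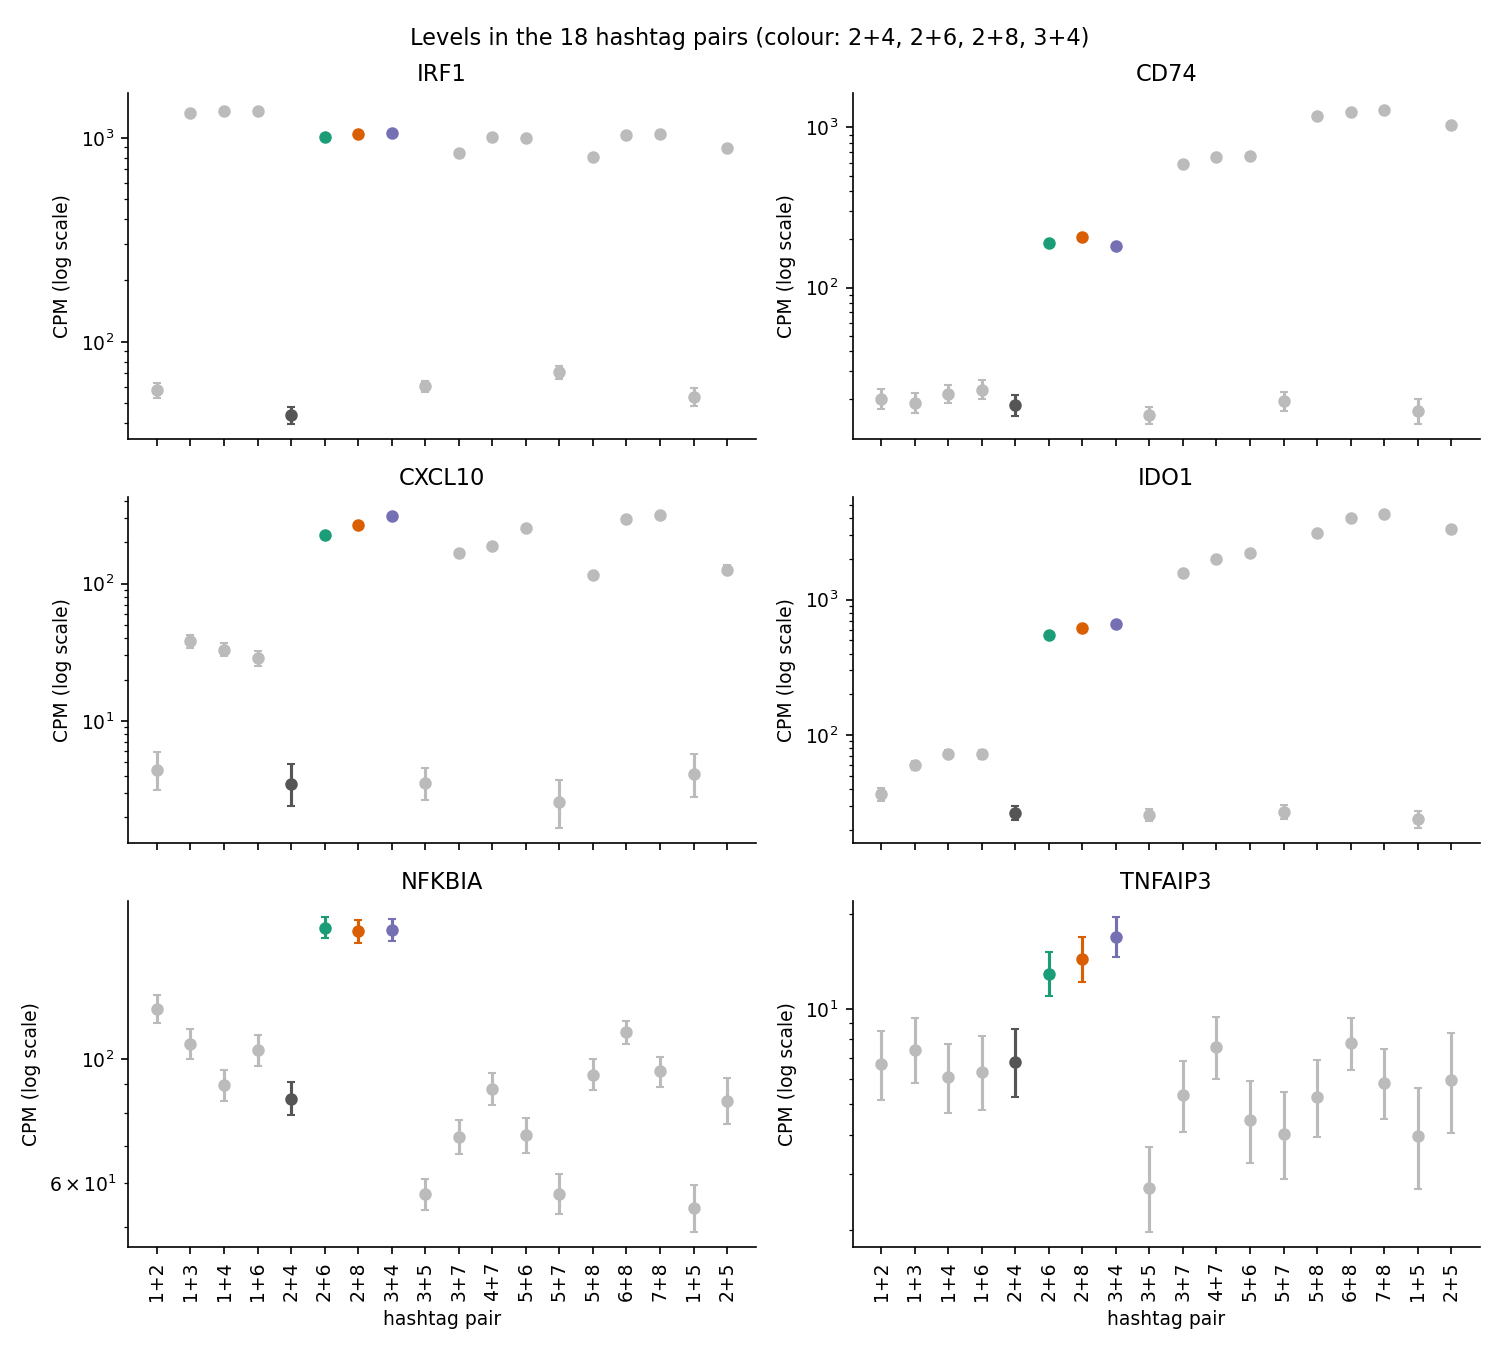
CPM (log scale, exact 95% counting intervals) of 6 genes in the 18 hashtag pairs, with pair 2+4 in dark grey, pairs 2+6, 2+8 and 3+4 in green, orange and purple, and the other 14 pairs in light grey. IDO1 of the 3 pairs lies between the low and the high pairs, as does CD74, whose level chose them, and NFKBIA and TNFAIP3 are higher in them than in any other pair.

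Across the 18 pairs, the places of CD74 and IRF1 were fixed by the choice of the 3 pairs and are given as a description. CD74 was between 183 and 208 CPM in them, below 7 pairs at 592 to 1278 CPM and above the others, at most 23.2 CPM. IRF1 ranked 8th, 5th and 4th. Of genes that the choice did not use, IDO1 had 7 pairs above, up to 4298 CPM, and for CXCL10 the 3 pairs ranked 6th, 4th and 2nd. IFIT1 ranked 17th, 16th and 15th, and its level of 28.6 to 31.5 CPM was below that of the other 14 pairs, 39.6 to 83.5 CPM, with pair 2+4 lowest of all.

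Some genes of NF-kB feedback were higher in these pairs than in any other, by a comparison of ranks that was added after the data were seen. Of 9376 genes with at least 1000 UMIs over all pairs, 161 (1.72%) were higher in all 3 pairs than in any of the other 15, and 7 of the 16 NF-kB genes were among them: NFKBIA, TNFAIP3, NFKBIE, NFKB1, RELB, BIRC3 and ICAM1. IER3, of the same list, was lower in the 3 pairs, at 73.7 to 82.7 CPM, than in any other. In the trios 1+3, 1+4 and 1+6, then 3+7, 4+7 and 5+6, then 5+8, 6+8 and 7+8, the same list had 1, 0 and 0 such genes. Of all 9376 genes, 2.29%, 1.29% and 2.71% were such genes in those trios. For a list of 16 genes, counts of 0 or 1 are near those shares. NFKBIA was between 169 and 172 CPM in the 3 pairs and at most 123 CPM in the other 14. TNFAIP3 was between 12.9 and 16.9 CPM and at most 7.79 CPM elsewhere. The lowest of the 3 pairs was 1.66, 1.38 and 1.27 times the highest other pair for TNFAIP3, NFKBIA and ICAM1. That margin was only 1.16-fold for NFKB1 and 1.11-fold for BIRC3, and smaller still for NFKBIE and RELB. Pair 2+4 was itself the next highest for NFKBIE and NFKB1, at 25.8 and 35.5 CPM, so those genes were high in all 4 pairs. By the same measure 381 genes (4.06%) were lower in the 3 pairs than in any other, including 5 of 22 G2/M genes: CENPF, CDK1, CCNB2, KIF2C and NUF2. Some of these lay very close: KIF2C had 32.2 CPM in pair 2+8 (330 UMIs) and 32.8 CPM in pair 2+4 (319 UMIs). NUF2 had 34.5 CPM in pair 2+6 and 37.0 CPM in pair 2+4, and CENPF 168 and 201 CPM in those 2 pairs. CD274, GBP1, GBP3, APOL2, APOL6, SOCS3 and CASP8 were also highest in these pairs, with CD274 at 35.6 to 42.6 CPM and at most 31.8 CPM in the other 14. The same margin was 1.30-fold for SOCS3, but 1.12-fold for CD274 and APOL6 and 1.11-fold for GBP1.

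Transcripts of different genes were spread over different shares of the cells. After each cell was thinned to 10000 UMIs, leaving out 5 to 12 shallower cells a pair, IRF1 was found in 36.8% of cells of pair 2+4 and in 99.7%, 100.0% and 99.7% of cells of the 3 pairs. For GBP1 and WARS the shares in the 3 pairs were likewise high, over 95%. IDO1 was found in 22.2% of cells of pair 2+4 and in 87.0%, 87.0% and 85.2% of cells of the 3 pairs. CD74 was found in 14.3% of cells of pair 2+4 and in 65.5%, 63.6% and 64.7% of cells of the 3 pairs. At this depth the chemokines were in a minority: CXCL10 was found in 3.49% of cells of pair 2+4 and in 38.1%, 38.3% and 42.6% of cells of the 3 pairs. The share in pair 2+4 had an interval of 1.76% to 6.16%, and the lowest of the 18 pairs, 3+5, had 2.71%. CXCL9 was found in 0.317% of cells of pair 2+4 and in 9.84%, 8.64% and 7.55% of cells of the 3 pairs. In unthinned counts, the 10% of cells with most CXCL10 held 72.5%, 62.1% and 64.5% of its UMIs in the 3 pairs. Unthinned, the shares of cells with CXCL10 were 10.3%, 48.5%, 50.6% and 52.8% in pairs 2+4, 2+6, 2+8 and 3+4. They were thus a small majority in pairs 2+8 and 3+4.

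**Figure D4:**
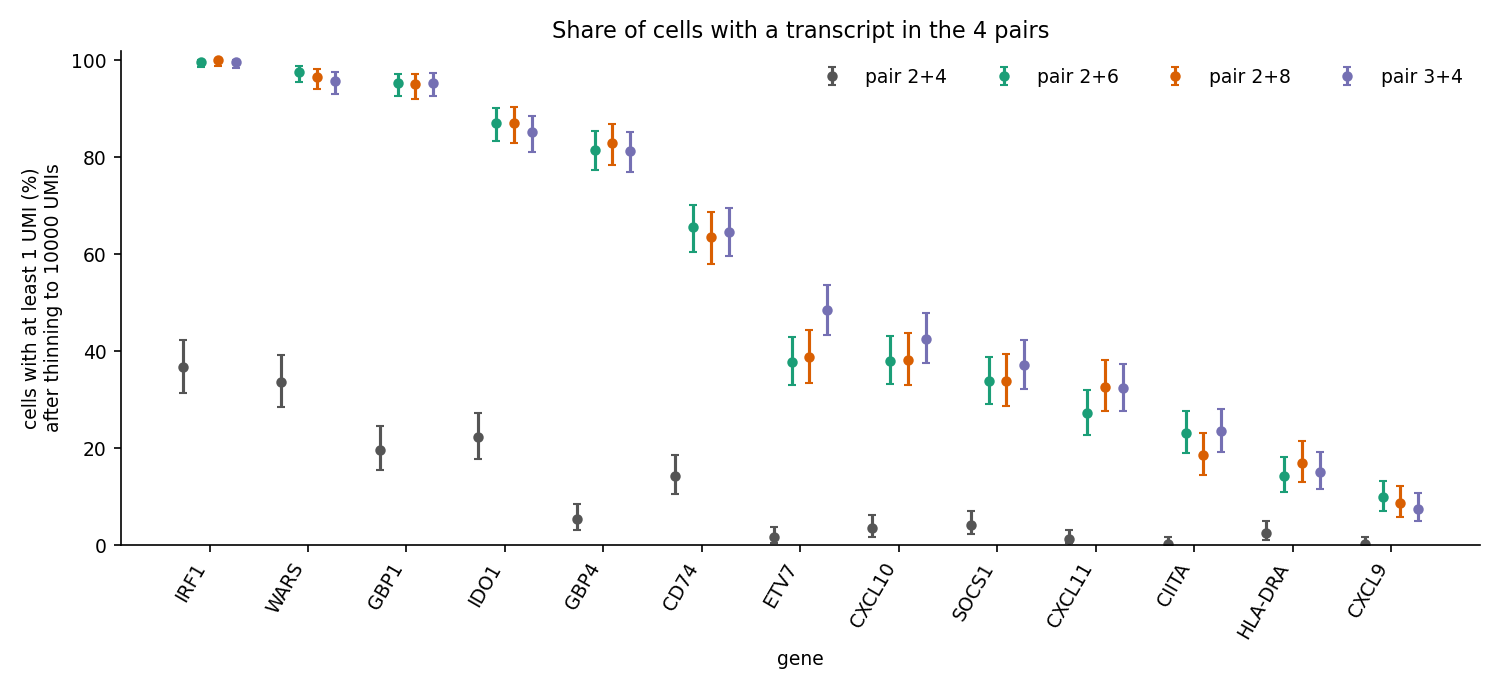
Share of cells with at least 1 UMI after thinning each cell to 10000 UMIs, for 13 genes in the 4 pairs, with exact 95% intervals. IRF1 is found in nearly every cell of pairs 2+6, 2+8 and 3+4, CXCL10 in 38.1% to 42.6% and CXCL9 in under 10%.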

How the data were processed

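Single-cell 3′ gene expression and antibody hashtags were measured in 1 pool of OVCAR5 cells on the 10x Genomics platform. The deposited matrix holds raw UMI counts per gene, hashtag and cell, with no normalization. Cell Ranger 5.0.1 is named per the file headers, and Cell Ranger 2.1.1 with GRCh38 per the submitters' processing notes; the difference was not resolved.

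Counts of the cells of each hashtag pair were summed and divided by the total of the pair (CPM). Genes with at least 200 UMIs over the 4 pairs were compared, and a ratio of at least 2, or its inverse, was called. With 1 pool no test, p-value or error between replicates could be had. Intervals are exact 95% ones (Poisson for a level, conditional binomial for a ratio, Clopper-Pearson for a share). In ratios, counts under 3 were set to 3. Cells under 10000 UMIs were left out of shares. The calculations used Python 3.11.15, numpy 2.4.6, scipy 1.17.1 and pandas 2.3.3, and were tested on simulated data. Doublets were removed only through hashtags, and free RNA was not subtracted. Promoters were matched to RefSeq by Ensembl ID or symbol.

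Named genes were the 12 highest and 8 lowest ratios against pair 2+4, the 5 highest and lowest of each step among the 3 pairs, up to 4 members by UMIs of each list, IRF1, CD74, CXCL10 and TNIP3; other list members, and those named for their rank among all pairs, were chosen after their values were seen. The pairs and lists were chosen with earlier results of these data known. Some genes of the lists are counted but not reported here by name. Alternatives in thresholds, cell filters, scaling and cells left out were tried.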

Additional observations from a re-analysis of the deposited data

Results flagged for a closer look

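CXCL10 was also present outside the hashtag pairs, in barcodes that no comparison used. In 603 barcodes that failed the cell filter it reached 207 CPM of non-mitochondrial UMIs (346 UMIs, exact 95% interval 186 to 230). In 1087 cells that passed the filter but had no hashtag pair it reached 192 CPM (9135 UMIs, interval 188 to 196). On that scale pair 2+4 had 3.92 (interval 2.71 to 5.47), and it was among the lowest pairs for CXCL10. With mitochondrial UMIs kept in the total, pairs 2+6, 2+8 and 3+4 had 227, 269 and 309 CPM. On that total, the hashtag pairs ran from 2.56 CPM in pair 5+7 to 315 CPM in pair 7+8. Levels outside the pairs thus lay within the range of the pairs. Which conditions the barcodes outside the pairs came from, and whether a mixture of conditions gives their levels, was not tested.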

How the results depend on the processing

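Counts of genes at least 2-fold higher in pairs 2+6, 2+8 and 3+4 depended on the thresholds, as more or fewer genes then enter: 363, 396 and 395 with a minimum of 50 UMIs, 117, 123 and 124 with 1000 UMIs, and 84, 89 and 86 at 4-fold. Lower genes numbered 165, 165 and 140 with 50 UMIs, 3, 2 and 4 with 1000 UMIs, 1, 1 and 1 at 4-fold, and 10, 2 and 12 after thinning to 10000 UMIs a cell, where fewer genes are tested. Median-of-ratios scaling gave 18 lower genes in pair 2+8 in place of 28; the cause was not tested. Steps among the 3 pairs, recomputed by alternatives added after the data were seen, moved with few cells. Without antiviral-high cells pair 2+8 had 0 genes lower than pair 2+6, and pair 3+4 had 1 higher than pair 2+8 and 5 higher than pair 2+6. Without SERPINB3 cells pair 2+8 had 2 higher and 2 lower than pair 2+6, and pair 3+4 had 0 lower than pair 2+8 and 4 higher and 1 lower than pair 2+6. Without cells over 60000 UMIs pair 2+8 had 10 higher than pair 2+6, and pair 3+4 had 1 higher and 2 lower than pair 2+8 and 20 higher than pair 2+6. Of 3840 recomputed ratios of the 160 measured genes named by the rule, 3582 stayed inside the counting interval, 255 lay outside it with 40 of them moved by over 1.5 times, and 129 came to the other side of 1. Of those 129, 3 were ratios of at least 2-fold to begin with: without SERPINB3 cells KRT75 and PI3 in pair 2+6 were 4.36 and 3.63 times pair 2+4, and without antiviral-high cells CCL5 in pair 2+8 was 1.30 times. For PI3 and CCL5 few UMIs were then left. PI3 had 14 in pair 2+6 and 3 in pair 2+4. CCL5 had 4 in pair 2+8 and 2, set to 3, in pair 2+4. Other ratios were below 2-fold to begin with. Without SERPINB3 cells PI3 in pair 2+8 went from 0.609 to 5.14, on 16 UMIs against the same 3 in pair 2+4. KRT75 in pairs 2+8 and 3+4 went from 0.592 and 0.646 to 2.06 and 2.06. Depth limits the rarest genes: CXCL9 rests on 4 UMIs in pair 2+4, and 9 of 14 class II genes were not measured.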
